A study of Mus musculus with 8 samples.

Results

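Receptors for immunoglobulin G (IgG) were followed in RNA sequencing of primary cultured mouse microglia, the resident macrophages of the brain. The members are the 7 genes of the deposited count table whose mouse symbol is Fcgr1, Fcgr3, Fcgr4, Fcgr2b, Fcer1g, Fcgrt or Trim21, out of 55385 genes in the table. Both groups were wild-type microglia from the neocortex and hippocampus of newborn mice. The 4 control cultures are labelled untreated, and the methods describe them as given PBS. The 4 IgG cultures received 10 µg/ml IgG for 24 h at 15 days in vitro. All cultures were made from the pooled brains of several pups in medium with serum, so each library is a culture and not an animal. The labels give each replicate number a date of its own, held by 1 control and 1 IgG library, which makes 4 pairs, without saying what was done on that date. The question for these genes was how the transcripts of the receptors that bind IgG at the cell surface, in endosomes and in the cytosol stand in microglia with and without added IgG.

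Surface Fcγ receptors bind the constant part of IgG, and cross-linking them starts signalling through Syk. FcγRI (Fcgr1, CD64) is the high-affinity receptor, and FcγRIII (Fcgr3, CD16) and FcγRIV (Fcgr4) are activating receptors of lower affinity that prefer IgG in complexes. These activating receptors depend on the common γ chain (Fcer1g), whose ITAM motif recruits Syk. FcγRIIb (Fcgr2b, CD32) carries an inhibitory ITIM motif instead. Inside the cell, the neonatal Fc receptor FcRn (Fcgrt) binds IgG in acidic endosomes and returns it to the surface, and TRIM21 (Trim21) is a ubiquitin ligase that binds antibodies in the cytosol.

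Library totals ran from 21287816 to 23703216 counts, and a gene with no count could still have up to 3 counts, or 0.124 to 0.147 CPM (counts scaled to library size). All 7 members passed the filter on low counts, which kept 17537 genes, with between 371 counts for Fcgr4 and 19026 counts for Fcer1g in a single library. The IgG libraries of pairs 1 and 3 stood apart, with 4.85% and 5.59% of their counts in mitochondrial genes against 1.97% to 2.41% in the other 6. Of 8 microglial markers, all were detected, but the homeostatic markers Tmem119 and P2ry12 were low, at a mean of 5.09 and 6.98 CPM in control. Their summed level was 4936 to 5302 CPM in control and 5145 to 6549 CPM with IgG. Transcripts of another brain lineage were present too: the oligodendrocyte markers Mbp, Mog, Olig2 and Sox10 summed to 633 to 974 CPM in control and 442 to 907 CPM with IgG, most of it Mbp. This sum leaves out 1 marker of the list, so the lineage as listed had a higher level. All 4 had a log2 fold change below 0 (median -0.17), the opposite sign to the microglial markers. Of the 4, 1 was lower in all 4 pairs, and 0 had an adjusted p under 0.05 in edgeR with the pair as a term. The part of these markers in the results was not tested. Astrocyte markers summed to 80.2 to 102 CPM, neuron markers to 32.0 to 55.7 CPM, and fibroblast and endothelial markers to at most 17.6 and 14.3 CPM in any library. The 3 endothelial markers tested had log2 fold changes above 0 (median 0.96), and 1, Cdh5, met the study's criterion for a changed gene (a log2 fold change beyond 0.5 either way with unadjusted p under 0.01) when the pair was a term of the fit (the block), at 0.892 ± 0.485 CPM in control and 1.76 ± 0.972 CPM with IgG (edgeR adjusted p = 0.693, or 0.221 with the block). B cell, natural killer cell and neutrophil markers, from other cells that carry Fc receptors, summed to at most 0.555, 2.84 and 2.00 CPM in any library.

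The levels of the members in control microglia covered a wide range (CPM scaled by TMM, edgeR's factor for library makeup, and divided by exon length so that genes can be compared). Fcer1g stood at 665 CPM per kilobase of exon, Fcgr3 at 170.1, Fcgr1 at 62.8, Fcgr2b at 30.8, Fcgr4 at 21.9, Fcgrt at 16.0 and Trim21 at 6.73 (means, n = 4). With IgG the order was the same, at 891, 172, 109.9, 31.5, 37.3, 19.6 and 7.69, except that Fcgr4 was above Fcgr2b. The ranges of Fcer1g and Fcgr3 overlapped no neighbour in either group. Those of Fcgr2b and Fcgr4 overlapped in both, as did those of Fcgr4 and Fcgrt, while Fcgr1 overlapped neither Fcgr3 nor Fcgr2b and Trim21 lay below Fcgrt. The place of Fcgr2b rests on its long exons, 5790 bases of which 1020 are coding. Per kilobase of coding sequence it stood at 175 CPM in control, above Fcgr1 at 134, and with IgG at 179, below Fcgr1 at 235.

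**Figure D1:**
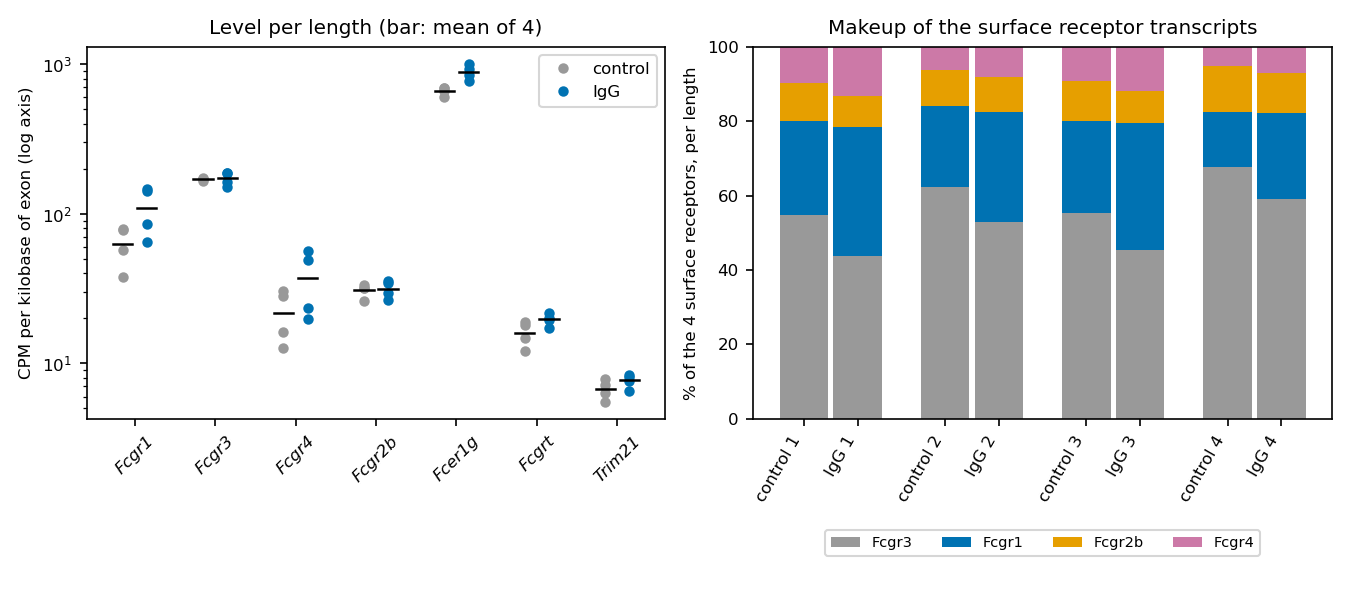
Left, CPM per kilobase of exon (log axis) for each of the 7 genes in control (grey) and IgG (blue) libraries, with the mean of 4 as a bar. Right, the percentage that Fcgr3, Fcgr1, Fcgr2b and Fcgr4 take of the summed per-length level of the 4 surface receptors in each library, with the libraries of a pair side by side. The Fcgr3 segment is shorter and the Fcgr1 segment taller with IgG in every pair.

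Transcripts of Fcgr1 and Fcgr4 were higher with IgG in every pair, by 1.5 to 1.86 times and by 1.45 to 1.87 times, and both rose by the test once the pairs were taken into account. Fcer1g was higher by 1.1 to 1.45 times within pairs and was the member whose IgG libraries all lay above all control libraries. Fcgr3 and Fcgr2b stood within the spread of their replicates. Fcgrt and Trim21 had values above control in each pair without passing the test. Tests were edgeR's quasi-likelihood test over all 17537 genes, with Benjamini-Hochberg adjustment, without and with the replicate number as a block. At an adjusted p under 0.05, 0 of 7 members passed without the block, where 0% of all genes tested did, and 2 of 7 (Fcgr1 and Fcgr4) passed with it, against 0.393% of all genes, all of them higher. By edgeR's unadjusted p under 0.05, 2 members passed without the block, Fcgr1 and Fcer1g, against 7.01% of genes in either direction and 4.83% higher, and 4 were higher with it, against 6.35%. The study's criterion, an unadjusted p under 0.01 with an absolute log2 fold change above 0.5, was met by 0 members without the block (0.844% of all genes) and by 2 with it (1.82%, or 1.48% counting higher genes alone). Of the 7 members, 5 were higher in all 4 pairs, against 10.4% of genes, and 1 had every IgG library above every control library, against 2.6%, and 0 had every IgG library below, against 1.57%. The median log2 fold change of the members was 0.30 and that of all genes tested was 0.00, while that of the 8 microglial markers was 0.34. In pairs 1 to 4 the median of the members was 0.15, 0.17, 0.48 and 0.49, and that of the markers 0.39, 0.20, 0.42 and 0.075. In cultures sequenced in bulk, more transcript per cell and more of the cells that carry it cannot be told apart.

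**Figure D2:**
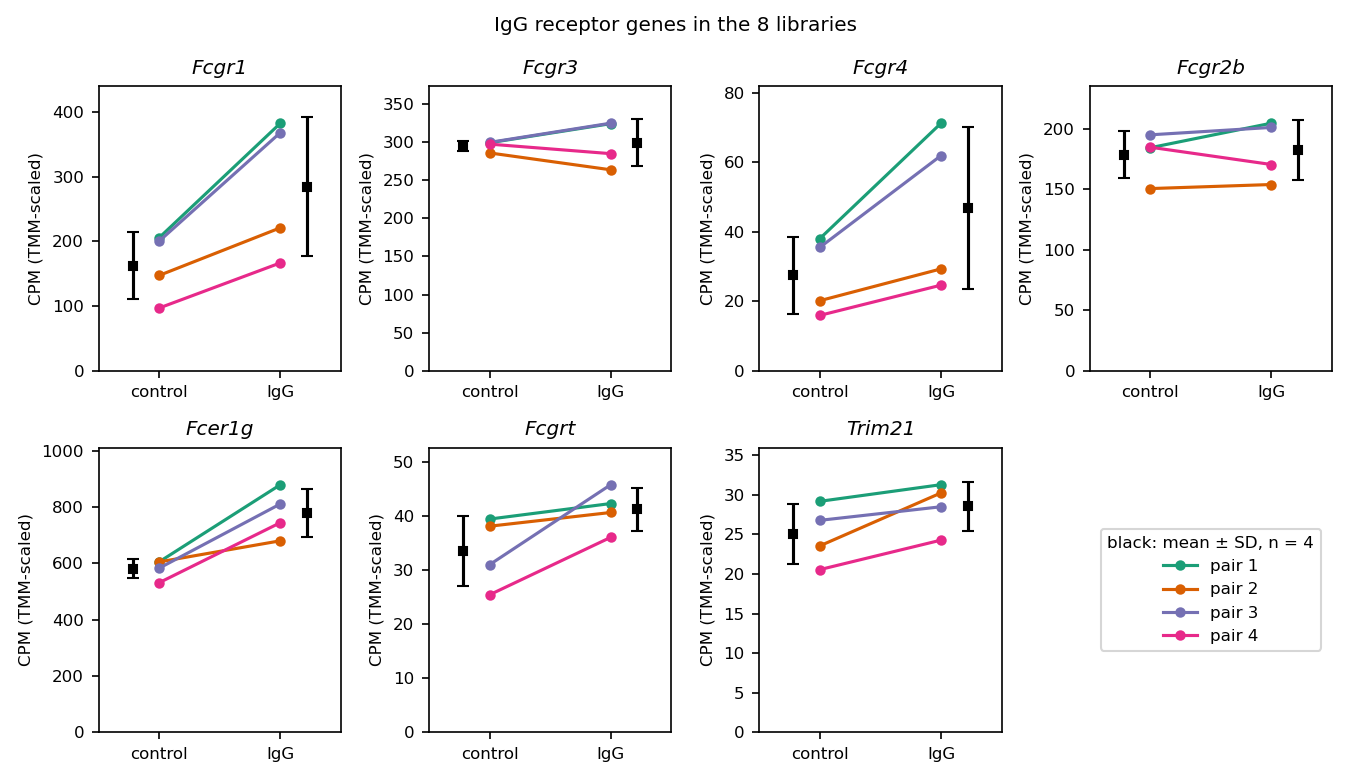
TMM-scaled CPM (linear axis from 0) of the 7 genes in the 8 libraries. Lines join the control and the IgG library of a pair, and black squares with bars are the mean ± SD of 4 libraries. The lines of Fcgr1 and Fcgr4 all go up, more steeply in pairs 1 and 3, which start from higher levels, while the lines of Fcgr3 and Fcgr2b cross or stay flat.

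Fcgr1 (ENSMUSG00000015947) lies on chromosome 3 of mm10, 96282909 to 96293969, on the minus strand. The Fcgr1 level in control pairs 1 to 4 was 206, 147, 200.4 and 97.1 CPM, and in their IgG partners 382, 221, 368 and 167 CPM. Every IgG library was above its partner, but the groups overlapped, since the IgG library of pair 4 was below the controls of pairs 1 and 3. The mean went from 163 ± 51.0 CPM to 284 ± 107 CPM (SD, n = 4). The Fcgr1 log2 fold change was 0.81 (standard error 0.30, 95% interval 0.14 to 1.47, edgeR adjusted p = 0.692) and, with the block, 0.78 (0.09, interval 0.57 to 1.00, adjusted p = 0.0165). Over 6 settings with the block (scalings, tests and a length correction) its adjusted p ran from 5.4e-08 to 0.0247, and over 9 settings without it from 0.426 to 0.734. With a pair left out of the edgeR fit with the block, the adjusted p of Fcgr1 was 0.105 without pair 1, 0.149 without pair 2, 0.107 without pair 3 and 0.0126 without pair 4, with log2 fold changes between 0.75 and 0.85. Among the controls, the highest library was 2.12 times the lowest. Within pairs the log2 changes were 0.89, 0.58, 0.88 and 0.78, and their SD of 0.14 compares with an SD of 0.50 between control libraries.

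Fcgr4 (ENSMUSG00000059089; chromosome 1, 171018920 to 171029761, plus strand) showed the same layout at a lower level. Its control libraries 1 to 4 read 38.1, 20.2, 35.5 and 16.0 CPM and its IgG libraries 71.2, 29.3, 61.9 and 24.7 CPM. Libraries 1 and 3 were high and libraries 2 and 4 low in both groups, so the groups overlapped although each IgG library was above its partner. The mean went from 27.4 ± 11 CPM to 46.8 ± 23.2 CPM (SD, n = 4). The Fcgr4 log2 fold change was 0.77 (standard error 0.38, 95% interval -0.08 to 1.62, edgeR adjusted p = 0.693) without the block and 0.72 (0.10, interval 0.49 to 0.95, adjusted p = 0.0329) with it. Its adjusted p ran from 7.3e-05 to 0.0584 over 6 settings with the block and from 0.622 to 0.734 over 9 without. In the fit with the block it was 0.170 without pair 1, 0.211 without pair 2, 0.154 without pair 3 and 0.0186 without pair 4. The order of the libraries was the same for Fcgr1 and Fcgr4 in control and in IgG, with replicate 1 the highest, then 3, 2 and 4. Within pairs the change of Fcgr1 exceeded that of Fcgr4 by -0.01 to 0.16 on the log2 scale, so the receptors moved by similar amounts in each pair.

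The highest levels of both genes among IgG libraries were in pairs 1 and 3, the libraries with the high mitochondrial share, and the controls of these pairs were the highest controls with a mitochondrial share of 2.32% to 2.41%. In the other 2 pairs the log2 changes were 0.58 and 0.78 for Fcgr1 and 0.54 and 0.62 for Fcgr4. With the block, 0 members passed adjustment without pair 1, pair 2 or pair 3, and 2 met the study's criterion in each case. The part of the mitochondrial share in the result was not tested. Border-associated macrophages also carry these receptors, and 3 of their 5 markers had enough counts to be tested. The summed level of the 5 markers was 288 to 460 CPM in control and 321 to 830 CPM with IgG. Most of this sum came from Siglec1, at 305 ± 66.8 CPM in control and 511 ± 210 CPM with IgG. Its log2 fold change was 0.74 (edgeR adjusted p = 0.692, or 0.111 with the block). Within pairs 1 to 4 the changes of Siglec1 were 0.92, 0.58, 0.94 and 0.22. With the block, Siglec1 met the study's criterion (1.82% of all genes) and passed adjustment in DESeq2. Mrc1 stood at 67.1 ± 11.2 CPM in control and 79.0 ± 27.3 CPM with IgG. Pf4 stood at 5.61 ± 0.552 CPM in control and 6.40 ± 1.44 CPM with IgG. The markers Lyve1 and Cd163 had 7 and 10 counts over all 8 libraries. All 3 tested markers of these macrophages had a log2 fold change above 0. The microglial marker Aif1, which encodes Iba1, had a log2 fold change of 0.67 (edgeR adjusted p = 0.615, or 0.0331 with the block). Of 8 microglial markers, 8 had a value above 0, and 4 of these were higher in all 4 pairs (10.4% of all genes). Tmem119 met the study's criterion without the block but not with it. Its log2 fold change was 0.54 (edgeR adjusted p = 0.692, or 0.367 with the block). The part of these cell types in the result was not tested.

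Stretches of promoter are shown for the 2 receptors that moved together, taken from RefSeq on GRCm38.p6, where all 7 members had an entry. Windows from 250 bases before to 50 bases after the start were searched on both strands for 3 patterns: the gamma-activated site of STAT dimers (TTCNNNGAA), the interferon-stimulated response element (GAAA, any 2 bases, then GAAA) and the core of the PU.1 site (GAGGAA). Of 32851 promoter windows of the same length, 8.298% hold the gamma-activated pattern, 3.443% the interferon-stimulated pattern and 28.28% the PU.1 pattern. Capitals mark matches, and a PU.1 match on the other strand reads TTCCTC. The Fcgr1 run is chr3:96293980-96294119 on the minus strand, the Fcgr4 run chr1:171018776-171018915 on the plus strand, and the Fcgr3 run, given for contrast as a receptor with little difference, chr1:171059404-171059553 on the minus strand.
Fcgr1: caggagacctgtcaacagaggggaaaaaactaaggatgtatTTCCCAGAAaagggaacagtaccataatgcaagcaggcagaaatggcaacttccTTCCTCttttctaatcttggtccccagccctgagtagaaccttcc
Fcgr4: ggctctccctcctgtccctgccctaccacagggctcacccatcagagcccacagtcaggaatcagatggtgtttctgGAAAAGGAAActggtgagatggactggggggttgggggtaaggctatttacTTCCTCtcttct
Fcgr3: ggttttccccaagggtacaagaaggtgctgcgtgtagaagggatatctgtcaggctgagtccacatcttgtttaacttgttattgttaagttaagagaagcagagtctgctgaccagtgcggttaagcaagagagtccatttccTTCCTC

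The Fcgr1 window held 1 gamma-activated match, 109 bases before the start (position -109), and 1 PU.1 match at -55. The Fcgr4 window held 1 interferon-stimulated match at -73 and 1 PU.1 match at -22. Fcgr3 has 2 RefSeq entries with starts close together, and their windows held the same PU.1 match, at -6 or -15 by the start used, and neither other pattern. These starts lie within the longer gene model used for counting lengths. The Trim21 window held 2 interferon-stimulated matches that overlap each other, at 14 and 20 bases after the start, with a PU.1 match at 11 that overlaps the match at 14. The Trim21 run is chr7:102565447-102565476 on the minus strand, within the exon.
Trim21: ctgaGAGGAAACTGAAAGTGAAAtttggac

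In the windows of Fcgr2b, Fcer1g and Fcgrt, none of the 3 patterns was present. A match describes the letters in the window and is not a measured binding site.

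Fcgr3 (ENSMUSG00000059498; chromosome 1, 171051174 to 171064935, minus strand) was the most abundant of the surface receptors and, of the members, the most even among control cultures. Its level was 299, 286, 299 and 297 CPM in control libraries 1 to 4 and 324, 264, 325 and 285 CPM in the IgG libraries. The control values lay inside the range of the IgG values, and 2 pairs were higher and 2 lower. The Fcgr3 log2 fold change was 0.02 (standard error 0.091, 95% interval -0.18 to 0.22, edgeR adjusted p = 0.958) without the block and 0.01 (interval -0.19 to 0.22, adjusted p = 0.964) with it, and its sign turned under total count and upper quartile scaling. The upper bounds are below the smallest change of Fcgr1 within a pair, 0.58, and in every pair the log2 change of Fcgr1 was 0.70 to 0.84 above that of Fcgr3.

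Fcgr2b (ENSMUSG00000026656; chromosome 1, 170958617 to 170976547, minus strand), the inhibitory receptor, read 184, 150.4, 195 and 185 CPM in control and 204, 154, 201 and 170.3 CPM with IgG. The groups overlapped over most of their range, and pair 4 had the lower value with IgG. The Fcgr2b log2 fold change was 0.03 (standard error 0.12, 95% interval -0.24 to 0.30, edgeR adjusted p = 0.946) and 0.03 (interval -0.17 to 0.23, adjusted p = 0.918) with the block, with a negative sign under total count and upper quartile scaling. The profiles of Fcgr3 and Fcgr2b over the 8 libraries, each centred on its mean, differed by a root mean square of 0.087 on the log2 scale, against 0.57 for Fcgr1 and Fcgr3. Fcgr2b, Fcgr3 and Fcgr4 are neighbours on chromosome 1 with similar sequences, and how reads that fit several of them were counted is not given in the sources used here, so the split between them is uncertain.

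**Figure D3:**
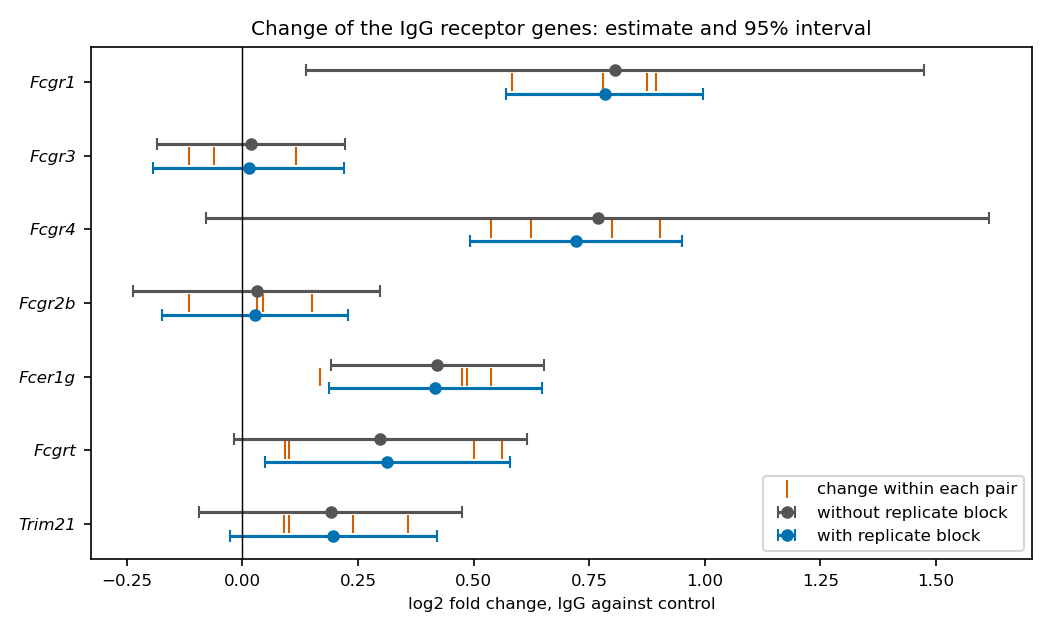
Log2 fold change of each gene, IgG against control, with its 95% interval without (grey) and with (blue) the replicate block, and the change within each of the 4 pairs as ticks. The intervals of Fcgr1 and Fcgr4 shrink with the block, from 0.14 to 1.47 down to 0.57 to 1.00 for Fcgr1, and those of Fcgr3 and Fcgr2b stay around 0.

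The makeup of the surface receptor transcripts also differed between the libraries of each pair. Per length of exon, Fcgr3 took 60.1% ± 6.10 of the summed level of the 4 surface receptors in control and 50.3% ± 7.12 with IgG (SD, n = 4). Fcgr1 took 21.6% ± 4.84 and 30.5% ± 5.35, Fcgr4 7.47% ± 2.25 and 10.1% ± 2.98, and Fcgr2b 10.8% ± 1.23 and 9.13% ± 1.07. In every pair the shares of Fcgr1 and Fcgr4 were higher and those of Fcgr3 and Fcgr2b lower with IgG. The Fcgr1 share, for example, went from 25.3% to 34.6% in pair 1 and from 14.8% to 23.2% in pair 4. The group ranges overlapped for each of the 4 receptors, and shares that sum to 100 are not independent of each other. The ratio of the activating receptors, Fcgr1, Fcgr3 and Fcgr4 together, to Fcgr2b was 8.31 ± 0.977 in control and 10.1 ± 1.22 with IgG. It was higher in each pair, from 8.87 to 11.1, from 9.14 to 9.81, from 8.27 to 10.9 and from 6.95 to 8.43, and the ranges of the groups overlapped. The ratio of Fcgr3 to Fcgr2b, the pair that holds most of the low-affinity transcripts, was 5.56 ± 0.529 and 5.49 ± 0.191. These shares depend on the exon lengths used, and no test was run on them.

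Fcer1g (ENSMUSG00000058715; chromosome 1, 171229572 to 171234365, minus strand) was the most abundant member, above 99.0% of the genes tested in control. Its level was 606, 605, 583 and 532 CPM in control libraries 1 to 4 and 879.7, 680.4, 811 and 745 CPM with IgG. The lowest IgG library, that of pair 2, was above the highest control library. The mean went from 582 ± 34.8 CPM to 779 ± 85.8 CPM (SD, n = 4). The Fcer1g log2 fold change was 0.42 (standard error 0.10, 95% interval 0.19 to 0.65), with an unadjusted p of 0.00224 and an adjusted p of 0.643 in edgeR's quasi-likelihood test. With the block it was 0.42 (0.10, adjusted p = 0.209), so Fcer1g did not pass adjustment in either fit. Its adjusted p ran from 0.0454 to 0.682 over 9 settings without the block and from 0.0460 to 0.312 over 6 with it, under 0.05 only in DESeq2 in each case. The log2 change within pairs was 0.54, 0.17, 0.48 and 0.49, and the change of Fcgr1 was 0.29 to 0.41 above it in each pair. Fcer1g stood at 2.63 ± 0.244 times the summed per-length level of the activating receptors in control and 2.86 ± 0.446 times with IgG.

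Per length of exon, the intracellular receptors had the lowest mean levels of the members in both groups. Their log2 fold changes lay below those of Fcgr1, Fcgr4 and Fcer1g and above those of Fcgr3 and Fcgr2b. Fcgrt (ENSMUSG00000003420; chromosome 7, 45092990 to 45103851, minus strand) read 39.5, 38.2, 31.1 and 25.5 CPM in control and 42.4, 40.7, 45.9 and 36.1 CPM with IgG. All pairs were higher, but the groups overlapped, since the IgG library of pair 4 was below the controls of pairs 1 and 2. The Fcgrt log2 fold change was 0.30 (standard error 0.14, 95% interval -0.02 to 0.61, edgeR adjusted p = 0.692) without the block and 0.31 (0.11, interval 0.05 to 0.58, adjusted p = 0.440) with it. The pairs fell into 2 with changes of 0.10 and 0.09 and 2 with 0.56 and 0.50. Trim21 (ENSMUSG00000030966; chromosome 7, 102557921 to 102565486, minus strand) read 29.2, 23.5, 26.8 and 20.5 CPM in control and 31.3, 30.2, 28.5 and 24.3 CPM with IgG. The IgG value was above its partner in each pair and the groups overlapped. The Trim21 log2 fold change was 0.19 (standard error 0.13, 95% interval -0.09 to 0.48, edgeR adjusted p = 0.714) and 0.20 (0.098, interval -0.03 to 0.42, adjusted p = 0.532) with the block.

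Fcgr2b, Fcgr4, Fcgr3 and Fcer1g lie on chromosome 1, where 27 other tested genes lie within 200 kb of a member. Of these, 0 had an adjusted p under 0.05 in edgeR, DESeq2 or limma-voom with the block, and 1 had an unadjusted p under 0.05 in edgeR. Their log2 fold changes in edgeR with the block ran from -0.55 to 0.29 with a median of 0.02. Of the 27, 3 were higher in all 4 pairs, a share close to the 10.4% of all genes. Within 200 kb of Fcgr1, Fcgrt and Trim21, 20, 31 and 3 genes were tested and 0 were called by these tools, with 1, 0 and 1 at an unadjusted p under 0.05 in edgeR with the block. Overlapping genes held few counts: 13 over all libraries for the antisense gene Gm38204 at Fcgr2b and 86 for Gm45669, antisense to Fcgrt and sharing no exon bases with it. Mir6546 at Fcgr3 had 2 counts and Gm26110 at Fcgr4 had 1. Whether strand was used in counting is not given in the sources used here.

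**Figure D4:**
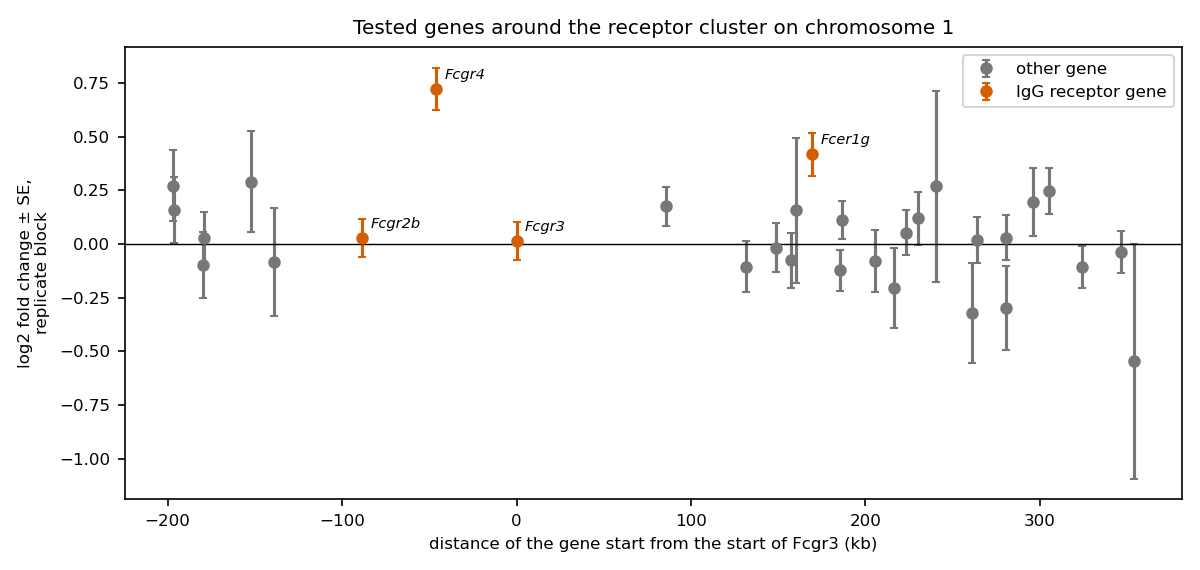
Log2 fold change ± SE with the replicate block of every tested gene around the receptor cluster, against the distance of its start from the start of Fcgr3 in kilobases. IgG receptor genes are orange and other genes grey. Fcgr4 at 0.72 and Fcer1g at 0.42 lie above all grey points, which end at 0.29.

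The machinery that works with the surface receptors is next. Of 27 genes of Fcγ receptor signalling, all tested, 21 had a log2 fold change above 0 and 6 below, with a median of 0.13 against 0.00 over all genes. At an adjusted p under 0.05, 0 passed edgeR without the block (8 at an unadjusted p under 0.05, against 7.01% of all genes, of which Prkcd, a protein kinase C gene, was lower at -0.30), and 1 rose with it and in DESeq2 in both designs, the GTPase gene Rac2, which acts in the NADPH oxidase and in phagocytosis. Rac2 went from 251 ± 18.8 to 393 ± 50.5 CPM (log2 fold change 0.65, standard error 0.11, edgeR adjusted p = 0.373, or 0.0381 with the block), with all IgG libraries above all controls. Syk, the kinase recruited by the ITAM of the γ chain, stood at 314 ± 31.9 and 342 ± 47.5 CPM (log2 fold change 0.12, standard error 0.12, edgeR adjusted p = 0.774). Inpp5d, the phosphatase SHIP1 that the inhibitory FcγRIIb recruits, stood at 184 ± 11.6 and 224 ± 42.1 CPM (0.28, standard error 0.13, edgeR adjusted p = 0.692). Neither passed adjustment in either fit. The log2 changes of Syk in pairs 1 to 4 were 0.16, 0.089, 0.21 and 0.012, and those of Inpp5d 0.43, 0.22, 0.40 and 0.0064, so both were close to 0 in pair 4. The median of the 27 genes was 0.24 and 0.23 in pairs 1 and 3, whose IgG libraries have the high mitochondrial share, and 0.078 and 0.042 in pairs 2 and 4. The part of those libraries in this and the lists that follow was not tested.

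Next to Fcer1g, other adaptors of receptors and the receptors that pair with them were counted. These adaptors carry an ITAM except Hcst, which had a log2 fold change of -0.063. Of 11 genes, 9 were tested and 5 were higher in all 4 pairs (10.4% of all genes). The log2 fold change was above 0 for 6 and below for 3, with a median of 0.23. In edgeR's quasi-likelihood test, 0 had an adjusted p under 0.05 in either fit. By its unadjusted p under 0.05, 3 passed without the block (7.01% of all genes) and 4 with it. Without the block, DESeq2 and the edgeR likelihood ratio test called 1, Clec4b1. Tyrobp (DAP12), the other main ITAM adaptor of microglia, stood at 1006 ± 51.4 and 908 ± 298 CPM (log2 fold change -0.15, standard error 0.20, edgeR adjusted p = 0.833), with changes of -0.52, -0.05, -0.64 and 0.40 in pairs 1 to 4. The study's criterion, which 0.844% and 1.82% of all genes met, was met in both fits by Clec4b1, a C-type lectin receptor, at 0.82, and by Sirpb1a, a receptor of the SIRP family, at 0.71, both with all IgG libraries above all controls.

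For FcRn, whose heavy chain is Fcgrt, the list of its light chain and of endosomal recycling held 10 genes, of which 9 were tested, 8 above 0 and 1 below, with a median of 0.12. By pair the median was 0.26 and 0.20 in pairs 1 and 3 and 0.061 and 0.11 in pairs 2 and 4, where 5 of 9 were higher in each. The light chain B2m stood at 1615 ± 206 and 2259 ± 465 CPM (log2 fold change 0.48, standard error 0.16, edgeR adjusted p = 0.692, or 0.143 with the block), and each IgG library exceeded its partner, as for Fcgrt. The gene of the list that rose in edgeR with the block was Ehd1, which acts in recycling from endosomes to the surface. Ehd1 went from 78.4 ± 3.45 to 127 ± 15.6 CPM (0.70, edgeR adjusted p = 0.150, or 0.0252 with the block). DESeq2 with the block called B2m as well as Ehd1. For TRIM21, 9 genes of ubiquitin transfer and of the steps after it were tested, 8 above 0 and 1 below, with a median of 0.23, and 0 passed adjustment in edgeR (3 without and 2 with the block at an unadjusted p under 0.05, against 7.01% of all genes without it), DESeq2 or limma-voom. The median was 0.40 and 0.44 in pairs 1 and 3 and 0.018 and -0.015 in pairs 2 and 4, so the list lay near 0 in the pairs without the high mitochondrial share. Vcp, the ATPase that works with TRIM21 on bound antibody, had 0.38 (edgeR adjusted p = 0.692, or 0.408 with the block), with changes of 0.55, 0.13, 0.69 and 0.064 in pairs 1 to 4 and all IgG libraries above all controls, as in 2.6% of genes.

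**Figure D5:**
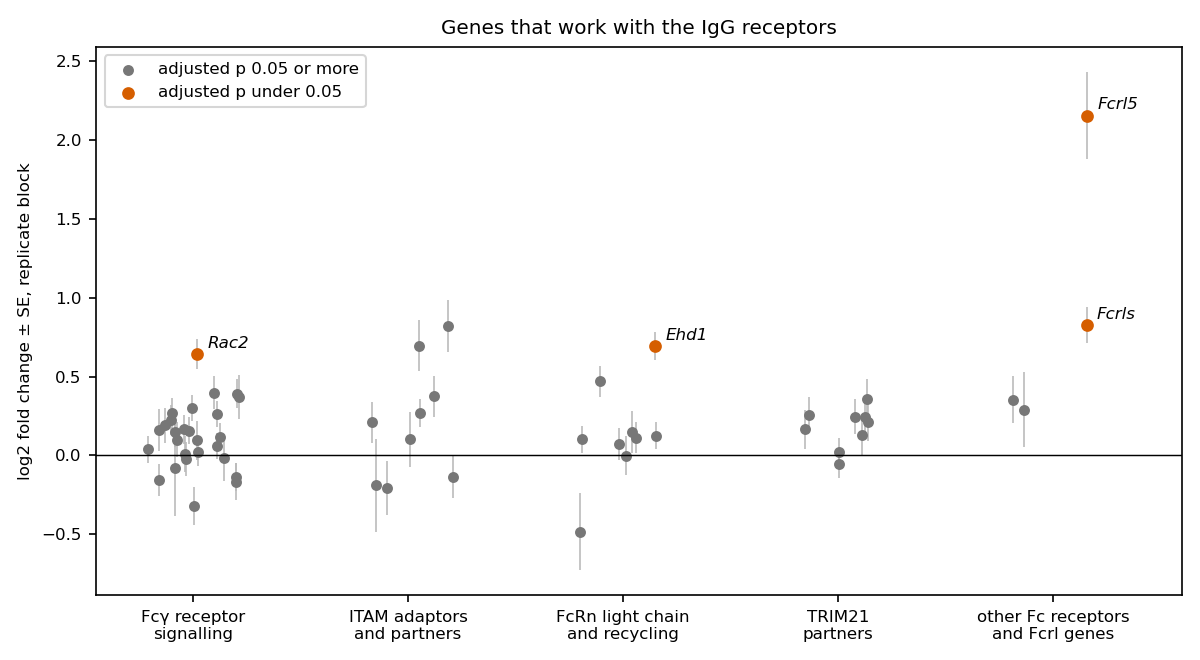
Log2 fold change ± SE with the replicate block of the tested genes of 5 lists that work with or resemble the IgG receptors. Orange points have an adjusted p under 0.05, which Rac2, Ehd1, Fcrls and Fcrl5 reach, and all other genes are grey.

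Of 11 other Fc receptors and Fc receptor-like genes, 4 were tested and 2 had no count in any library, the IgE receptor chain Fcer1a and the IgM receptor Fcmr. All 4 tested were above 0, with a median log2 fold change of 0.60, and all 4 were higher in every pair (10.4% of all genes). By edgeR with the block 2 rose, against 0.393% of all genes. Fcrls, an Fc receptor-like gene known as a microglial marker in mice, went from 196 ± 45.7 to 349 ± 88.3 CPM (0.83, edgeR adjusted p = 0.634, or 0.0329 with the block). Fcrl5 went from 0.476 ± 0.247 to 2.27 ± 1.66 CPM (2.22, edgeR adjusted p = 0.692, or 0.0252 with the block), from 5 to 17 counts in control libraries and 16 to 92 with IgG. Both were higher in all 4 pairs, as Fcgr1 was. Like Fcgr1 and Fcgr4, the genes Rac2, Ehd1, Fcrls, Fcrl5 and Aif1 had an adjusted p of 0.05 or more in edgeR with the block when pair 1, pair 2 or pair 3 was left out, between 0.115 and 0.263, and under 0.05 without pair 4. The ligand itself was hardly transcribed in the cultures: of 11 immunoglobulin chain genes 7 had no count, Ighg3 and Igkc had 1 count each over the 8 libraries, and Ighm had 188.

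The genes with the profile most like each member were taken as the 3 with the smallest root mean square difference of centred log2 CPM over the 8 libraries. For Fcgr1 these were Irgm1 (0.10), Ms4a6c (0.11) and Lgals3bp (0.11). For Fcgr4 they were H2-T24 (0.091), Spats2l (0.15) and Xdh (0.16). For Fcer1g they were Clec12a (0.047), Grn (0.065) and Ttc30a2 (0.071), for Fcgr3 Ptpra (0.026), Ttyh2 (0.029) and Rxra (0.029), and for Fcgr2b Pcdhb22 (0.035), Fech (0.041) and Emp1 (0.052). The nearest to Fcgrt were Anapc10 (0.089), Tnfrsf22 (0.10) and Irf9 (0.11), and the nearest to Trim21 were Psme2b (0.035), Ccdc167 (0.066) and Irf9 (0.066). Genes with little change over the libraries have small distances to many others. With profiles centred within each pair, which removes the difference between cultures, Fcgr4 was among the 3 nearest to Fcgr1 (0.045), Grn was again among those of Fcer1g and Psme2b among those of Trim21, and the other members shared 0 of their 3 with the first list.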

How the data were processed

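The authors deposited raw read counts for each Ensembl gene, made from cleaned reads of poly(A) RNA. The submitters' processing notes name HISAT2 2.2.1, SAMtools 1.12, Picard 2.26.3, featureCounts, R 4.1.2, edgeR 3.36.0 and GRCm38, and the use of strand and of reads with several alignments is not given in the sources used here. Symbols, coordinates and lengths came from GENCODE M21 (mm10), which held 55144 of the 55385 identifiers. Counts were scaled with TMM, filtered with filterByExpr and compared in R 4.3.3 by edgeR 4.0.16 (quasi-likelihood test), with Benjamini-Hochberg adjustment over 17537 genes and the group as the only term. Log2 CPM used a prior count of 2.

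The replicate numbers pair the libraries, because each number has 1 date in the labels. After subtraction of the group means, the 2 libraries of a number correlated over 11928 genes at 0.47, 0.43, 0.28 and 0.33, against -0.38 to 0.28 for other numbers. IgG library 3 correlated at 0.280 with control 3 and at 0.278 with control 1, so this check does not separate pair 3. Because the labels pair the libraries, the replicate number was also fitted as a block, and both values are given. No libraries of a group were copies (chi-square per degree of freedom at least 5.00 in each pair of libraries of a group). The highest value among controls was 17.6. Among IgG libraries it was 6.59 between 1 and 3, 26.9 between 2 and 4, and 65.3 to 121 across these, so the IgG group was less even. Without the block, p-values measure the spread between cultures. With the block, they measure how far the change with IgG varies between the pairs.

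The members, the lists of partner and marker genes and the tests were chosen with earlier results of these data known. 1 marker gene is not reported here, and the oligodendrocyte markers were summed over the other 4, a choice made after the data were seen. Named are all members, B2m, Syk, Inpp5d and Tyrobp, list genes that passed adjustment or the study's criterion in either fit, overlapping genes, and the 3 genes nearest to each member. Other genes were named as examples after their values were seen. Alternatives covered the block, a lowess correction for length and GC content with a span of 0.3, scaling, filters, DESeq2 1.42.0, limma-voom of limma 3.58.1, the likelihood ratio test, coding length and leaving out libraries or pairs. Promoter sequences came from RefSeq (GRCm38.p6). Protein sequences were not used here.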

Additional observations from a re-analysis of the deposited data

Results flagged for a closer look

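Of the 14 sets of 4 libraries made by the 7 members in the 2 groups, 1 had a library far from the other 3 for its spread. The Fcgr3 level of control replicate 2 was 286 CPM, and its gap to the nearest control made up 0.836 of the range of the 4, above the critical value of Dixon's test at 95%. The other 3 control libraries lay between 297 and 299 CPM, so the gap is large only beside their small spread, and the highest control was 1.05 times the lowest. Chance marks about 1 such set in 20.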

How the results depend on the processing

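Without the block, 0 members passed adjustment and 0 met the study's criterion. With the replicate block both counts were 2 (Fcgr1 and Fcgr4), as they were with the block and a length and GC correction, RLE scaling or limma-voom. With the block, total count scaling left 1 with adjusted p under 0.05 (Fcgr1) and DESeq2 gave 3 (with Fcer1g), and 2 met the criterion in each. DESeq2 without the block gave 1 (Fcer1g) past adjustment and 1 (Fcgr1) past the criterion, and the likelihood ratio test and the filter at 1 count gave 1 past the criterion. With single libraries or pairs left out, the count past adjustment was 0 without the block and 0 to 2 with it (2 only without pair 4). The count past the criterion was 0 to 1 without the block (Fcgr1 without IgG replicate 4 or pair 4, Fcer1g without pair 2) and 2 with it. In the whole table, 0 genes passed adjustment in the quasi-likelihood test without the block, against 53 in DESeq2, 43 in the likelihood ratio test, 4 with the filter at 1 count and 6 without IgG replicate 4. With the block 69 passed, 213 with the length and GC correction added and 231 in DESeq2, and 14, 0, 16 and 182 without pair 1, 2, 3 or 4. The criterion was met by 148 genes without the block, 320 with it, and 56 (without pair 3) to 610 (without IgG replicate 4) with libraries or pairs left out of the fit without it. The cause of these differences was not tested.

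The sign turned only for Fcgr3 and Fcgr2b. The Fcgr3 log2 fold change was -0.086 under total count scaling and -0.087 with the block added, -0.022 under upper quartile scaling and -0.011 with at least 10 counts in every library. That of Fcgr2b was -0.076 and -0.073 in the same order, -0.010 under upper quartile scaling and -0.016 with the block and the length and GC correction. With libraries or pairs left out, Fcgr3 ran from -0.021 to 0.076 and Fcgr2b from -0.042 to 0.11 without the block. With the block Fcgr3 ran from -0.020 (without pair 1 or pair 3) to 0.056 and Fcgr2b from -0.013 (without pair 1) to 0.059. Total count scaling moved the median of all genes to -0.09, or -0.11 with the block. The other 5 members kept a value above 0 in all settings, and without the block Fcgr1 ran from 0.61 to 0.99, Fcgr4 from 0.49 to 0.98, Fcer1g from 0.36 to 0.50, Fcgrt from 0.17 to 0.39 and Trim21 from 0.094 to 0.27 with libraries left out. Values moved by over 1.5 times for Fcgr4 without IgG replicate 1 (0.49), and for Fcgrt and Trim21 without control replicate 4 (0.17 and 0.094) and under total count scaling (0.20 and 0.093). Per coding length, chosen after the data were seen, 5 of 7 members kept their place in the order of levels in each group. The coding length of RefSeq proteins was not run. Depth limits genes of few counts, while each member had at least 371 counts in every library.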
